A study of Mus musculus with 18 samples.

Results

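Cr2, Blk, Ms4a1, Cd79a, Cd79b, Fcer2a and Pax5 are genes of the B cells that fill the lymphoid follicles of the gut wall. These 7 genes were found by NCBI gene ID among the 18349 genes of an expression table from 18 libraries of mouse colon, and all 7 passed the filter for testing, at least 1 FPKM in at least 3 libraries. Each library was made from RNA of the whole colon of male C57BL/6 mice, excised, rinsed with PBS and snap-frozen, and the labels give the mouse genotype as WT in every group. Control mice (n = 3 libraries) drank water. All other mice had 7 days of dextran sulfate sodium (DSS) at 2.5%, a sulfated polysaccharide that damages the lining of the colon, and then 5 weeks of gavage. The DSS group (n = 3) received PBS by gavage. The other 3 groups (n = 4 each) received Lactobacillus plantarum, a lactic acid bacterium, as strain ZJ316 (the WT group), ZJ316-KO (KO) or ZJ316-COM (COM). Here WT, KO and COM name bacterial strains and not mouse genotypes, and the meaning of KO and COM is not stated. The labels number the libraries but do not tie them to separate animals, so a p-value reflects no more than how these samples scatter.

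Colonic B cells gather in isolated lymphoid follicles and in the larger patches of the colon wall, where follicular dendritic cells hold antigen and secrete the chemokine that draws B cells in. In germinal centres inside these follicles, activated B cells mutate and switch their antibody genes, and the antibody-secreting plasma cells that result settle in the lamina propria. A follicle is a small structure, so how many of them lie in a piece of colon can differ from sample to sample. In bulk RNA, fewer cells of a type and less RNA per cell cannot be told apart.

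Values are FPKM, the fragments counted for a gene after scaling to its transcript length and to the library, and levels of different genes are compared on this per-length scale. Fold changes are given as log2 of FPKM + 1 with their standard error (SE) from limma. A gene is called when its Benjamini-Hochberg adjusted p, taken over all 13263 genes tested, is under 0.05. Library totals ran from 517933 to 558590 FPKM, with 16446 to 16859 genes above 0, and the number of reads behind them is unknown. The 10 colon epithelium markers had a mean log2(FPKM + 1) of 8.34 to 9.30 in every library. Single markers of this list varied more than the mean, also between Control 3 and the other Control libraries. Several libraries stood apart in genes of other tissues. The mean log2(FPKM + 1) of 10 pancreatic acinar genes was 10.1 in DSS 1, 8.60 in KO 3 and 7.72 in DSS 3. No further library exceeded 0.91. For the 12 squamous epithelium genes it was 2.86 in DSS 2, 2.86 in COM 3, 2.39 in WT 2, 1.94 for WT 4 and 1.59 for KO 3, with no other library above 0.57. Hox genes of the distal gut (8 genes, patterned from stomach to rectum) averaged 1.45 in Control 3, 2.61 in KO 2 and 3.04 in DSS 3, while the remaining libraries lay between 3.72 and 4.56. Control 3 also had the highest mean of the 8 adipocyte genes, 4.54.

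RefSeq promoter windows (assembly GRCm38.p6) matched 4 of the 7 genes, Cr2, Cd79a, Fcer2a and Pax5. They are shown because the 7 genes moved together across the libraries, and they carry the 250 bases before the start site, 5′ to 3′, with matches to 5 motifs in capitals.
Cr2, chr1:195176720-195176969, minus strand: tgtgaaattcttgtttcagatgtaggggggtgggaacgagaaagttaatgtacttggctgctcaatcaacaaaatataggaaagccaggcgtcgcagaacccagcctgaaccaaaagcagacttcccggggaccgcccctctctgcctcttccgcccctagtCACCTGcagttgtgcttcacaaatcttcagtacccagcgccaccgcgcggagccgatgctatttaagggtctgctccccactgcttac
Cd79a, chr7:24897247-24897496, plus strand: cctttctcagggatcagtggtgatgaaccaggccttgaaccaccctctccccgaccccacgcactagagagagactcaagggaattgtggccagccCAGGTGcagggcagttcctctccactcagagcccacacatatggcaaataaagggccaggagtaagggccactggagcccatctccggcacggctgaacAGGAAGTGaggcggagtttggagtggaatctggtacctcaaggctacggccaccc
Fcer2a, chr8:3694175-3694424, minus strand, the window of the outermost of its start sites: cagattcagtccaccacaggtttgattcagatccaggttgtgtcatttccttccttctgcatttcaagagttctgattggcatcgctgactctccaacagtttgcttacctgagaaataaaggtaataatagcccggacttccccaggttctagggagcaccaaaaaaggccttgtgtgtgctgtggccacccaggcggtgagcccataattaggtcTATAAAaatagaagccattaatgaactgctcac
Pax5, chr4:44710695-44710944, minus strand: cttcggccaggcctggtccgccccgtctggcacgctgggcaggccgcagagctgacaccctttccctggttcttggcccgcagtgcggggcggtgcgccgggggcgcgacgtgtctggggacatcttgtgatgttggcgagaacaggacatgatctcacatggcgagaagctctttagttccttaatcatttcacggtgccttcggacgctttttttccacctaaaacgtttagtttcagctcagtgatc
The motifs were searched on both strands: the octamer ATGCAAAT bound by Oct factors, the core CCCNNGGG of EBF sites, the ETS core AGGAAGTG, the E-box CAGGTG and the TATA box TATAAA. Cr2 held the E-box, read from the other strand, 88 bases before the start site of its window. That start site lies inside the annotated gene, which reaches to 195176880, and so does the E-box. Cd79a held the ETS core 55 bases and the E-box 154 bases before the start. Fcer2a held the TATA box 33 bases before the start, and the Pax5 window held none of the 5. Of 32851 RefSeq windows of the same length, 1.6% held the octamer, 11.8% the EBF core, 3.14% the ETS core, 17.2% the E-box and 12.4% the TATA box. RefSeq also gives 2 further start sites of Fcer2a, and the window of one of them held the E-box 99 and 244 bases before that start. The E-box was thus the motif found for most genes, in a window of 3 of the 4. These matches describe the letters only.

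Cd79a and Cd79b encode the Igα and Igβ chains that carry the signal of the B cell receptor, and they had the highest levels of the 7 genes. Cd79a (gene ID 12518, chromosome 7, 24897497 to 24901858, GRCm38.p6, as for all coordinates here) lay at 27.4, 30.2 and 1.28 FPKM in Control 1, 2 and 3, and at 38.0, 38.5 and 48.95 FPKM in DSS 1, 2 and 3. Every DSS library was above every Control library, and Control 3 was more than an order of magnitude below the other Control libraries. It lay at 13.9, 19.3, 34.7 and 25.8 FPKM in WT 1 to 4. In KO 1 to 4 it lay at 25.8, 15.55, 38.3 and 28.9 FPKM, and in COM 1 to 4 at 16.7, 22.7, 34.8 and 20.2 FPKM. All WT and COM libraries were below the lowest DSS library, and KO 3 lay between DSS 1 and DSS 2. Cd79b (gene ID 15985, chromosome 11, 106311341 to 106314562) lay at 21.7, 18.8 and 0.63 FPKM in Control and at 28.4, 25.0 and 30.8 FPKM in DSS. Its levels in the libraries of mice given a strain were 7.89, 12.4, 21.4 and 16.6 FPKM for WT, 13.35, 9.81, 20.9 and 14.8 FPKM for KO and 9.44, 14.9, 19.8 and 10.3 FPKM for COM. All 12 of these were below every DSS library.

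Ms4a1 encodes CD20, a membrane protein carried by mature B cells and lost by plasma cells (gene ID 12482, chromosome 19, 11249679 to 11266149). It lay at 11, 11.03 and 0.36 FPKM in Control and at 16.0, 13.7 and 16.9 FPKM in DSS. The DSS libraries again lay above all Control libraries. The WT libraries had 2.76, 5.31, 9.53 and 7.56 FPKM, the KO libraries 6.61, 4.22, 13.9 and 8.92 FPKM, and the COM libraries 5.86, 9, 12.5 and 5.47 FPKM. Only KO 3, at 13.86 FPKM, reached the lowest DSS value, 13.68 FPKM. Blk encodes a Src family kinase of B cells that acts below the B cell receptor (gene ID 12143, chromosome 14, 63372837 to 63417187). Its Control values were 2.66, 3.07 and 0.17 FPKM and its DSS values 4.85, 3.94 and 4.81 FPKM. It lay at 1.24, 1.65, 2.96 and 2.57 FPKM in WT, at 2.07, 1.2, 3.86 and 2.84 FPKM in KO, and at 1.74, 2.12, 3.55 and 1.88 FPKM in COM. No library outside the DSS group reached the lowest DSS value of Blk.

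Cr2 encodes complement receptors CD21 and CD35, which mark mature B cells and follicular dendritic cells and bind antigen coated with complement (gene ID 12902, chromosome 1, 195136811 to 195176880). It lay at 3.01, 4.02 and 0.12 FPKM in Control and at 6.12, 4.79 and 6.59 FPKM in DSS. WT libraries had 1.09, 2.63, 3.93 and 2.54 FPKM, KO libraries 2.16, 1.62, 4.06 and 2.69 FPKM, and COM libraries 2.01, 2.75, 4.90 and 2.14 FPKM. COM 3 was above DSS 2, and all other libraries outside the DSS group were below the 3 DSS libraries. Fcer2a encodes CD23, the low-affinity IgE receptor of follicular B cells (gene ID 14128, chromosome 8, 3680280 to 3694174). It lay at 3.14, 5.19 and 0.29 FPKM in Control and at 6.81, 5.39 and 5.81 FPKM in DSS. In the other groups it lay at 0.96, 2.49, 4.19 and 3.29 FPKM (WT), 2.88, 2.32, 5.75 and 3.62 FPKM (KO) and 1.76, 3, 4.43 and 2.41 FPKM (COM). The Control and DSS libraries did not overlap, with Control 2 and DSS 2 close to each other, and KO 3 lay within the DSS range.

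Pax5 encodes the transcription factor that holds cells in the B lineage and is shut off in plasma cells (gene ID 18507, chromosome 4, 44524748 to 44710694). It had the lowest median of the 7 genes, 1.95 FPKM over 18 libraries. It lay at 2.33, 3.95 and 0.07 FPKM in Control and at 3.22, 3.09 and 4.36 FPKM in DSS. Here the groups overlapped, because Control 2 was above DSS 1 and DSS 2. The WT values were 1.34, 1.76, 2.14 and 1.65 FPKM, the KO values 1.62, 1.65, 3.04 and 2.37 FPKM and the COM values 1.3, 1.47, 3.43 and 1.21 FPKM. All WT and KO libraries lay below the DSS libraries, and COM 3 lay above DSS 1 and DSS 2.

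**Figure D1:**
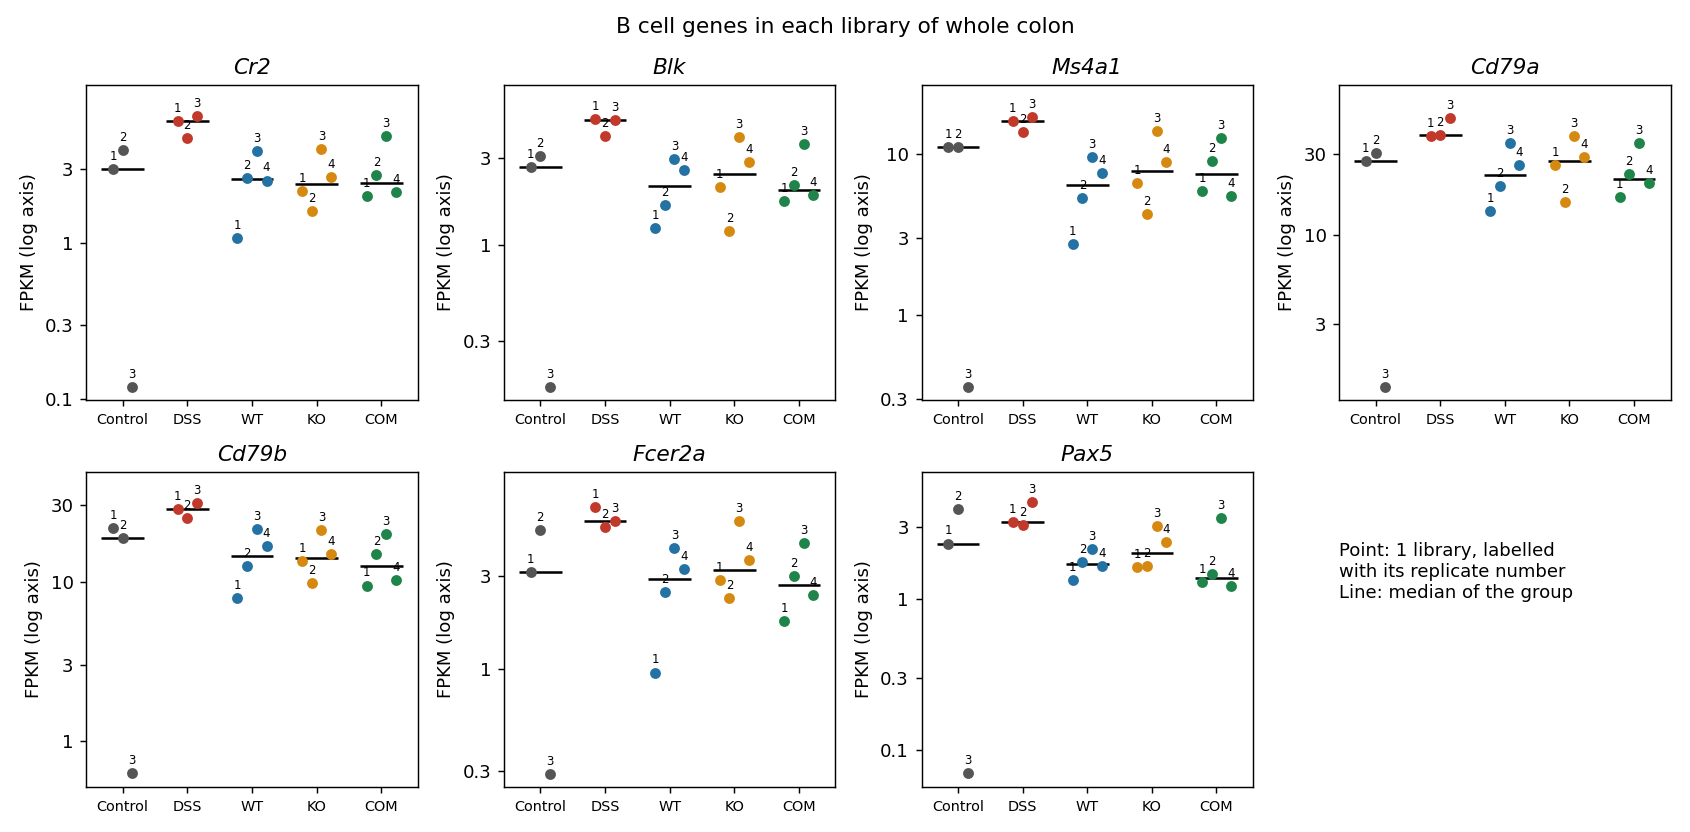
FPKM of the 7 B cell genes on a log axis, with 1 point for each library, numbered by replicate and placed in the 5 groups, and a line at the median of each group. Control 3 is the lowest of 18 libraries in every panel, and the highest library of each panel belongs to the DSS group.

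Ordered by group median, all 7 genes were highest in DSS. Ms4a1, for example, had a median of 16.0 FPKM in DSS, 11 in Control, 7.77 in KO, 7.43 in COM and 6.44 in WT. Below DSS the order was not resolved, as Control, WT, KO and COM overlapped pairwise for each gene. Control 3 was the lowest of 18 libraries for all 7 genes. DSS 3 was the highest of 18 for Cr2, Ms4a1, Cd79a, Cd79b and Pax5, and DSS 1 for Blk and Fcer2a. WT 3, KO 3 and COM 3 were the highest of their groups for all 7, and WT 1 was the lowest of its group for all 7. The labels do not say whether the numbers pair these libraries.

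The spread within groups was wide in every group but DSS. The ratio of the highest to the lowest library ran from 1.23 to 1.41 over the 7 genes in DSS, from 1.6 to 4.36 in WT, from 1.88 to 3.28 in KO and from 2.04 to 2.83 in COM. In Control it ran from 17.9 to 56.4, with Control 3 as the low end for each gene. The residual SD of log2(FPKM + 1) over the 5 groups was 0.52 for Blk to 0.94 for Cd79a, against a median of 0.14 over all genes tested. Only 4.47% of genes had a larger residual SD than Blk and 1.16% a larger one than Cd79a. Without Control 3, the residual SDs of the 7 genes were 0.33 to 0.52, and 2.67% to 6.96% of genes still exceeded them. The 7 genes were thus among the more variable genes within groups, with or without that library.

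How B cell genes stood in PBS-gavaged mice after DSS was addressed by comparing the DSS and Control groups. All 7 genes had higher means in DSS, and none passed the test (limma, 0 of 7 called, while 16.9% of all genes tested were called and 11.6% were called as higher). At an unadjusted p under 0.05, 6 of the 7 were higher, all but Pax5, beside 21.1% of all genes tested. Cr2 differed by 1.26 ± 0.45 on the log2 scale (2.38 ± 2.02 FPKM in Control and 5.83 ± 0.93 FPKM in DSS, SD, n = 3 each; limma adjusted p = 0.0653). Blk differed by 1.09 ± 0.39 (limma adjusted p = 0.067). The differences of the receptor genes were 1.75 ± 0.70 for Cd79a and 1.68 ± 0.70 for Cd79b (limma adjusted p = 0.0969 and 0.107). Ms4a1 differed by 1.504 ± 0.65, Fcer2a by 1.12 ± 0.47 and Pax5 by 0.80 ± 0.40 (limma adjusted p = 0.121, 0.108 and 0.182). The median over the 7 genes was 1.26, beside 0.05 over all genes tested. The DSS and Control libraries did not overlap for 6 of the 7 genes, all but Pax5, where 19.4% of all genes tested lay wholly higher in DSS.

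These differences rested in large part on Control 3. Without it the 7 genes remained higher in DSS, by 0.16 ± 0.27 for Pax5 to 0.60 ± 0.34 for Cr2, with limma adjusted p of 0.274 to 0.763, 0 of 7 called and 11.1% of all genes called. For each gene this is less than the full difference divided by 2. When Control 1 was left out, 5 of the 7 were called as higher in DSS (Cr2, Blk, Ms4a1, Cd79a and Cd79b, limma adjusted p from 0.025 to 0.0407), where 27.7% of all genes were called. When Control 2 was left out, 5 were called (Cr2, Blk, Cd79a, Fcer2a and Pax5, limma adjusted p from 0.0261 to 0.0383), where 15.2% of all genes were called. In either case Control 3 was 1 of the 2 Control libraries that remained. Control 3 was also the library with the lowest distal gut Hox mean and the highest adipocyte mean, whose part in the result was not tested. DSS 1 and DSS 3, which were highest for the B cell genes, were the DSS libraries with high acinar genes. Without these and KO 3, the differences from Control were 0.65 for Pax5 to 1.64 for Cd79a, with DSS 2 as the lone DSS library, assumed to vary like the other groups. Without the 5 squamous-rich libraries they were 0.87 for Pax5 to 1.80 for Cd79a, and in both settings none was called.

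**Figure D2:**
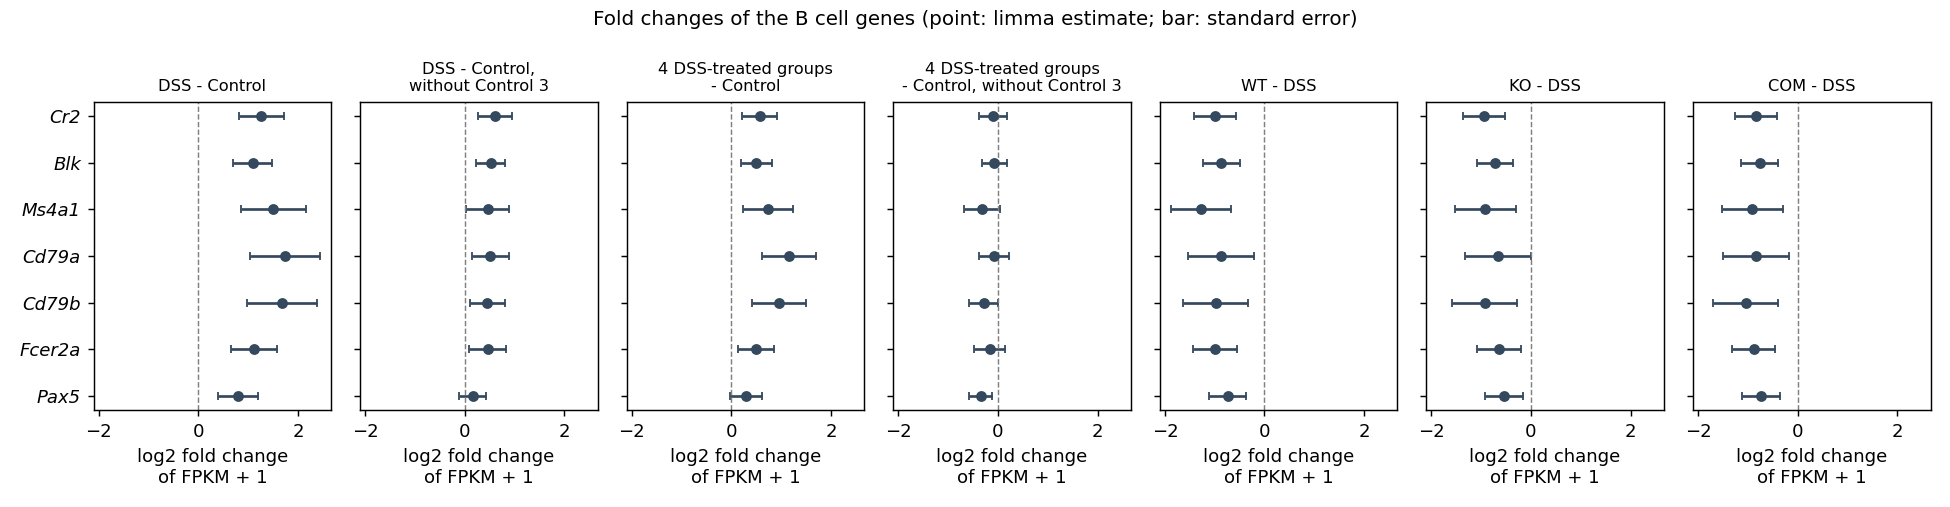
Log2 fold change of FPKM + 1 for the 7 B cell genes in 7 panels, as limma estimates (points) with SE (bars) and a dashed line at 0. DSS lay above Control with and without Control 3, the pooled 4 DSS-treated groups changed from above to below Control when Control 3 was left out, and WT, KO and COM all lay below DSS.

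The comparisons of WT, KO and COM with DSS asked whether B cell genes differed after gavage of a strain in place of PBS. All 3 use the same 3 DSS libraries, so they are not independent of each other or of the comparison of DSS with Control. The 7 genes were lower in all 3 strain groups, and none passed the test in any of them. For WT, the limma estimates were -1.28 ± 0.61 for Ms4a1, -1.001 ± 0.42 for Cr2, -0.99 ± 0.44 for Fcer2a, -0.98 ± 0.65 for Cd79b, -0.87 ± 0.66 for Cd79a, -0.87 ± 0.37 for Blk and -0.74 ± 0.38 for Pax5. In linear terms, Ms4a1 had 6.29 ± 2.92 FPKM in WT (SD, n = 4) and 15.5 ± 1.68 FPKM in DSS (SD, n = 3). The limma adjusted p was 1 for all 7, and 0% of all genes tested were called in this comparison. At an unadjusted p under 0.05, 3 of the 7 were lower (Cr2, Blk and Fcer2a), beside 2.84% of all genes tested. All 7 genes had WT libraries wholly below the DSS libraries, where 6.01% of genes tested did.

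Against DSS, the KO group had estimates of -0.95 ± 0.42 for Cr2, -0.93 ± 0.65 for Cd79b, -0.91 ± 0.61 for Ms4a1, -0.72 ± 0.37 for Blk, -0.66 ± 0.66 for Cd79a, -0.64 ± 0.44 for Fcer2a and -0.54 ± 0.38 for Pax5. None of the 7 was called (limma adjusted p from 0.283 to 0.651), and 0.166% of all genes were. Cr2 alone of the 7 was lower at an unadjusted p under 0.05, beside 9.97% of all genes tested. Without KO 2 the value of Cd79a was -0.43. For Cr2, Blk, Cd79b and Pax5 all KO libraries lay below all DSS libraries, 4 of 7 genes beside 11.6% of all genes tested. In the COM group the estimates ran from -1.04 ± 0.65 for Cd79b to -0.73 ± 0.38 for Pax5. Again none was called (limma adjusted p from 0.466 to 0.661, 0 at an unadjusted p under 0.05, beside 6.63% of all genes), with 0.0151% of all genes called. All COM libraries lay below all DSS libraries for Blk, Ms4a1, Cd79a, Cd79b and Fcer2a, 5 of 7 genes beside 9% of all genes tested. The medians over the 7 genes were -0.98 in WT, -0.72 in KO and -0.84 in COM, beside -0.00275, -0.0267 and -0.0168 over all genes tested.

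Control 3 entered these comparisons only through the shared estimate of spread. Without it the estimates against DSS were the same, and their errors were smaller, with an SE of 0.36 for Ms4a1 in WT. At an unadjusted p under 0.05, 7 of 7 genes were then lower in WT, 6 of 7 in KO (all but Fcer2a) and 7 of 7 in COM, beside 4.28%, 12.8% and 9.17% of all genes. Still none of the 7 was called, where 0%, 1.96% and 0.28% of all genes were. Without Control 3 the lowest limma adjusted p was 0.516 in WT, 0.0788 in KO (Cr2) and 0.119 in COM (Cd79b).

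The strains did not differ from each other in these genes beyond their spread. KO minus WT ranged from 0.05 for Cd79b to 0.36 for Ms4a1, and COM minus WT from -0.07 for Cd79b to 0.37 for Ms4a1. COM minus KO ranged from -0.24 for Fcer2a to 0.11 for Cr2. All 3 comparisons had 0 of 7 genes called by limma and 0 at an unadjusted p under 0.05, with 0.829% of all genes called for KO against WT, 0.00754% for COM against WT and 0.0302% for COM against KO. These samples leave room for sizeable differences, as the 95% interval of Ms4a1 for KO minus WT ran from -0.84 to 1.56.

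Against Control, the WT, KO and COM groups gave values whose sign depended on Control 3. These 3 comparisons and that of DSS share the Control libraries. With all libraries, the medians over the 7 genes were 0.23 in WT, 0.48 in KO and 0.43 in COM, and all 7 genes were positive in each. None of the 7 was called by limma (0 at an unadjusted p under 0.05), where 23.1%, 5.14% and 7.6% of all genes were called. Without Control 3 the medians were -0.53 in WT, -0.35 in KO and -0.42 in COM, and all 7 genes were negative in each. The WT values then ran from -0.82 ± 0.41 for Ms4a1 to -0.35 ± 0.28 for Blk, and again none was called. The pool of the 4 DSS-treated groups, each weighted equally, lay above Control by 0.57 ± 0.35 for Cr2, 0.50 ± 0.30 for Blk, 0.73 ± 0.51 for Ms4a1, 1.16 ± 0.55 for Cd79a, 0.95 ± 0.54 for Cd79b, 0.49 ± 0.36 for Fcer2a and 0.30 ± 0.31 for Pax5. None was called (limma adjusted p from 0.142 to 0.528, 0 at an unadjusted p under 0.05), where 21% of all genes were. Without Control 3 all 7 values lay below Control, from -0.35 for Pax5 to -0.07 for Blk. Without Control 1, Cd79a and Cd79b were called as higher, at 1.74 ± 0.61 and 1.61 ± 0.58 (limma adjusted p = 0.0418 and 0.0476), where 31.8% of all genes were called. Over the 5 groups at once, the F test of limma called 0 of the 7 genes (adjusted p from 0.24 to 0.445, 0 at an unadjusted p under 0.05), while 13.9% of all genes were called.

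The levels of the 7 genes moved together from library to library, with proportions that varied less than their levels. Over the 21 pairs of genes, Pearson's r of log2(FPKM + 1) across the 18 libraries ran from 0.90 to 0.99 with a median of 0.94. Without Control 3 it ran from 0.84 to 0.97, and with the group means removed from 0.89 to 0.99. These values describe libraries that share their scaling and carry no test. By the rule for likeness, the 12 other genes closest to the mean of the 7 included Tnfrsf13c (r = 0.995), Cd22 (0.994), H2-Ob (0.992), Cd37 (0.992), Fcmr (0.988), Siglecg (0.983), Cxcr5 (0.983), Fcrla (0.980), Bank1 (0.979), Mfge8 (0.976) and Map4k1 (0.974), over 18 libraries. Tnfrsf13c encodes the receptor of the B cell survival factor BAFF, Cd22 encodes an inhibitory B cell coreceptor, and Cxcr5 is the chemokine receptor of follicular homing. Mfge8 is a secreted protein of follicular dendritic cells and macrophages. Map4k1 and Siglecg were in none of the lists. With group means removed, 9 of these 12 remained in the first 12, and Btla, Arhgap45 and H2-DMb2 took the other places.

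Likeness to the mean of the 7 genes was graded over the lists. The median r over 18 libraries was 0.945 for 21 other B lineage genes, 0.823 for 19 genes of B cell receptor signalling and 0.746 for 22 follicle organising signals. It was 0.744 for 9 follicular dendritic cell genes, 0.714 for 10 germinal centre genes, 0.626 for 9 plasma cell genes and 0.548 for 12 T and NK cell genes, against 0.139 over all genes tested. Lists of other kinds reached similar values, with 0.617 for 5 dendritic cell, 0.541 for 9 macrophage and 0.53 for 8 distal gut Hox genes. Without Control 3 these 3 lists had 0.256, 0.161 and 0.0632. Genes of another tissue also tracked the 7 genes, with a median r of 0.478 over 18 libraries for 10 pancreatic acinar genes. Without Control 3 the order changed: 0.927 for other B lineage genes, 0.714 for B cell receptor signalling, 0.666 for germinal centre, 0.612 for pancreatic acinar, 0.529 for follicle organising signals, 0.396 for follicular dendritic cell, 0.355 for T and NK cell and 0.228 for plasma cell genes. The acinar genes, which were high in DSS 1, DSS 3 and KO 3, thus lay between the germinal centre genes and the follicle organising signals in this measure, and their part in it was not tested.

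**Figure D3:**
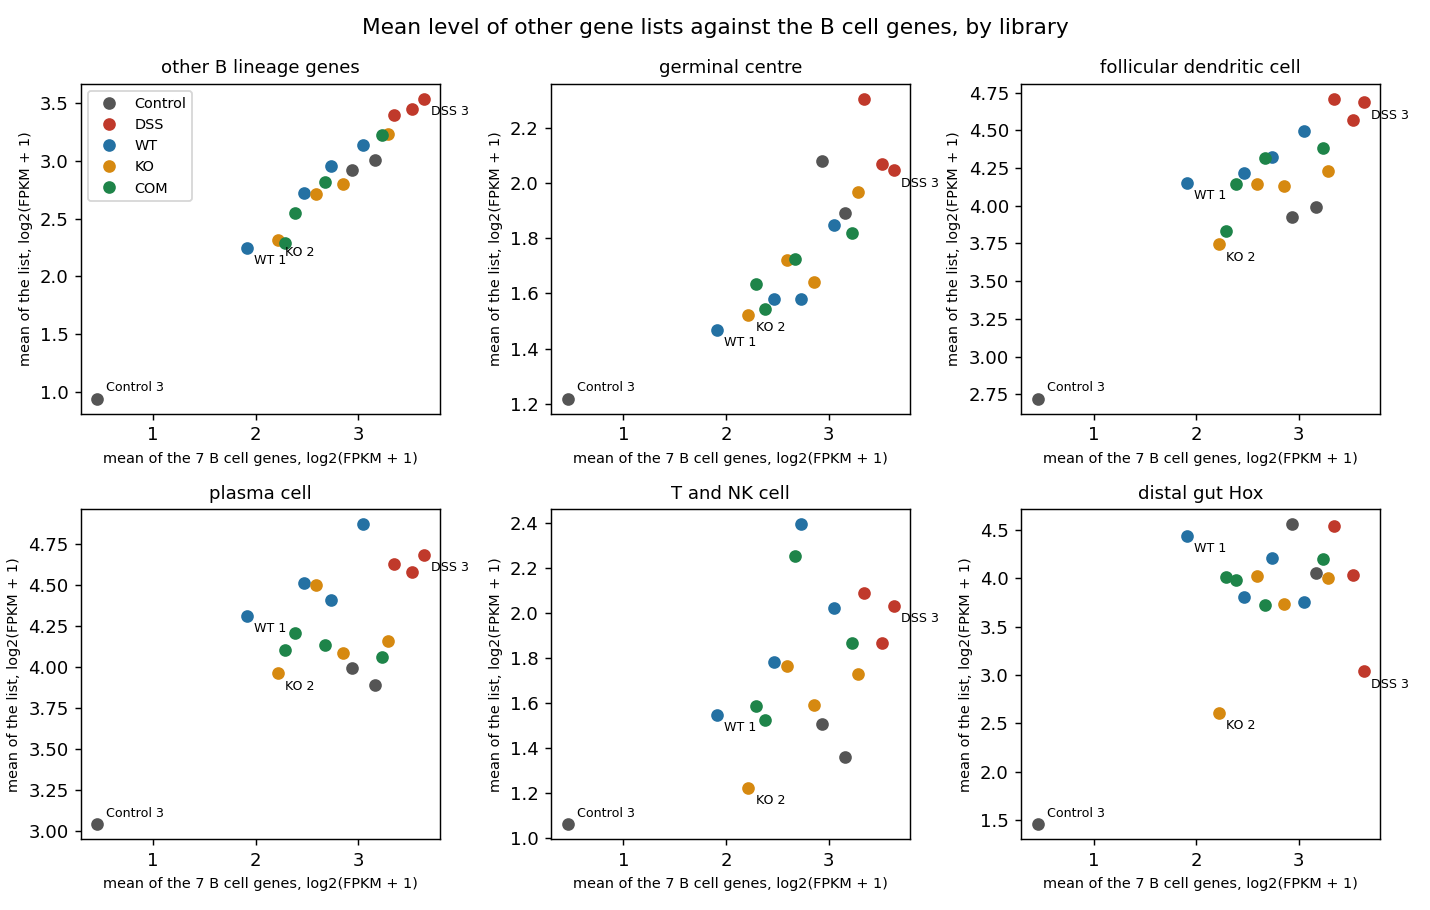
Mean log2(FPKM + 1) of 6 gene lists (vertical axes) against the mean of the 7 B cell genes (horizontal axes), with 1 point for each of 18 libraries coloured by group. Other B lineage genes fall on a line, germinal centre genes follow with Control 1 above the WT, KO and COM groups, and Control 3 is lowest for all 6 lists.

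Other genes of the B lineage mostly moved as the 7 genes did, and some of them passed the test. Their r to the mean of the 7 ran from 0.455 to 0.995 over 18 libraries, with a median of 0.945. In DSS against Control, 11.6% of all genes were called as higher. Of the 21 genes, 8 were called as higher by limma and 0 as lower (median 1.17, beside 0.05 over all genes). They include Ly6d, a surface protein of B cell progenitors and also of squamous epithelia (2.13 ± 0.64), the coreceptor Cd72 (1.42 ± 0.42), Cd180, a Toll-like receptor relative (1.17 ± 0.36), the adaptor Bank1 (1.15 ± 0.38), the Oct2 factor gene Pou2f2 (1.04 ± 0.28) and the kinase Btk (1.01 ± 0.27). Ly6d was highest in DSS 2 and COM 3, at 79.8 and 77.9 FPKM, which were also the libraries with the highest squamous genes. The part of squamous tissue in that value was not tested. Cd22 differed by 1.401 ± 0.56 and was not called. The count of 8 became 0 when only the groups compared entered the model, 0 without Control 3 (11.1% of all genes called) and 0 without DSS 2 or DSS 3. The count was 3 without DSS 1, 16 without Control 1 (27.7% of all genes called) and 15 without Control 2 (15.2%). Without the 3 acinar-rich or the 5 squamous-rich libraries, settings chosen after seeing the data that leave DSS 2 alone in the one and DSS 1 and DSS 3 in the other, it was 0. Against DSS, 0 of 21 were called in WT, KO or COM, with medians of -0.75, -0.75 and -0.81. In DSS against Control, 8 of 9 macrophage genes were called as higher, and their part in the B lineage values was not tested.

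B cell receptor signalling genes are in part shared with other leukocytes. In DSS against Control 12 of 19 were called as higher and 0 as lower, where 11.6% of all genes were called as higher. Btk and Cd72, given above, belong to this list too. The largest of the other called genes were Ptprc, the CD45 phosphatase of all leukocytes (1.33 ± 0.32), the phosphatase Inpp5d (0.98 ± 0.22), the adaptor Pik3ap1 (0.93 ± 0.30) and the kinase subunit Pik3cd (0.88 ± 0.21). Without Control 3, 7 of 19 were called, among them Ptprc at 0.91 ± 0.27 and Inpp5d at 0.68 ± 0.18. Leaving out either DSS 2 or DSS 3 also gave 7, and leaving out the acinar-rich or the squamous-rich libraries gave 0. Macrophage genes moved in the same comparison, with 8 of 9 called as higher, and T and NK cell genes with 5 of 12, and their part in the values of the shared signalling genes was not tested.

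Among the signals that organise follicles, 6 of 22 genes were called as higher in DSS than in Control and 1 as lower. Of all genes, 11.6% were called as higher. Ccr7, the receptor that leads cells into lymphoid tissue, rose by 1.39 ± 0.29 and the lymphotoxin chain Ltb by 1.35 ± 0.37. Ccr6, a receptor of B cells and lymphoid inducer cells drawn to follicles, rose by 1.18 ± 0.31, the lymphocyte survival cytokine Il7 by 0.69 ± 0.18 and Tnfsf13b, which encodes BAFF, by 0.50 ± 0.12. Glycam1, a ligand of L-selectin on lymph node vessels, was listed at 0 in Control 3, lay at 0.96 and 0.99 FPKM in Control 1 and 2 and at 7.60 to 11.7 FPKM in DSS. Without Control 3 the count was 3 higher (Glycam1, Ccr7 and Tnfsf13b) and 1 lower. When only the groups compared entered the model, 0 of the 22 were called. The higher count was 3 without DSS 3, 10 without Control 1, and 0 without the acinar-rich or the squamous-rich libraries. In WT against Control 6 were called as higher, in COM against Control 4 and in KO against Control 1, with 1 lower in each, where 23.1%, 7.6% and 5.14% of all genes were called. When Control 3 was left out, these counts were 3 higher and 2 lower in WT, 0 higher and 2 lower in COM, and 0 higher and 2 lower in KO, where 14.2%, 5.99% and 4.89% of all genes were called. Tnfrsf11a, the receptor RANK, was among the lower genes in each, at -0.27 ± 0.09 in WT, -0.33 ± 0.09 in COM and -0.35 ± 0.09 in KO. The higher count in COM was also 0 without COM 3. Against DSS none of the 22 was called in WT, KO or COM.

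Follicular dendritic cell genes included 5 of 9 called as higher in DSS than in Control, beside 11.6% of all genes, and 0 as lower. These were Clu, a secreted chaperone also made by injured epithelium (2.00 ± 0.51), the Fc receptor Fcgr2b (1.45 ± 0.28), and the adhesion molecules Vcam1 (1.401 ± 0.29), Madcam1 (1.32 ± 0.26) and Icam1 (0.997 ± 0.24). Other cells of the gut wall also express these 5. Cxcl13, the chemokine that draws B cells into follicles, differed by 1.24 ± 0.44 and Mfge8 by 1.03 ± 0.36 (limma adjusted p = 0.0626 and 0.0595), so the more specific members of the list did not pass. Cxcl13 lay at 24.95, 26.3 and 4.60 FPKM in Control and at 34.3, 31.2 and 44.7 FPKM in DSS, and the groups did not overlap. Without Control 3, 4 of the 9 were called (Clu, Fcgr2b, Vcam1 and Madcam1), and without the acinar-rich or the squamous-rich libraries 0 were. In WT against Control 5 were called as higher, with Fcgr2b at 1.59 ± 0.27, where 23.1% of all genes were called. Without Control 3 2 were called as higher in WT (Fcgr2b and Vcam1), where 14.2% of all genes were called. The count in WT was 3 without WT 2 or WT 3 and 1 without the squamous-rich libraries.

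By mean log2(FPKM + 1), the 10 germinal centre genes ranked Control 1 above Control 2, at 2.08 and 1.89. The 7 B cell genes ranked them the other way, at 2.94 and 3.16. Mef2b, which encodes a transcription factor of germinal centre B cells, lay at 2.56, 1.59 and 0.17 FPKM in Control and at 1.2, 2.11 and 1.76 FPKM in DSS. It lay at 0.21, 0.27, 1.06 and 0.82 FPKM in WT, at 0.70, 0.40, 1.21 and 0.95 FPKM in KO and at 0.67, 1.08, 0.87 and 0.44 FPKM in COM. Control 1 thus had the highest Mef2b of all 18 libraries, while its Ms4a1 lay below that of every DSS library. Most of the germinal centre genes were not highest in Control 1. Basp1 and Rgs13, for example, were lower there than in every DSS library. In DSS against Control, 11.6% of all genes were called as higher. Of the 10 germinal centre genes 1 was called as higher and 0 as lower. It was Basp1 (0.87 ± 0.22), a membrane protein that many other cells express, and Mef2b differed by 0.27 ± 0.32. In WT against Control 23.1% of all genes were called. Basp1 was called as higher there (0.60 ± 0.21) and Rgs13, a regulator of G protein signalling also known from mast and tuft cells, as lower (-0.58 ± 0.20). These calls were not stable. None of the 10 was called in DSS without Control 3 or DSS 2, or when only the groups compared entered the model. In DSS 4 were called as higher without Control 1 and 2 without WT 3. In WT none was called without Control 2, DSS 1, DSS 3, WT 1, WT 2, WT 4, KO 3, COM 2 or COM 4, and 1 was called without WT 3, KO 1, KO 2, KO 4, COM 1 or COM 3. All 10 were lower in WT, in KO and in COM than in DSS, with medians of -0.52, -0.50 and -0.46 and 0 called in each.

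Without Control 3, 4 of the 10 germinal centre genes were called as lower in WT than in Control and 0 as higher, where 14.2% of all genes were called. Among them were Mef2b (-0.97 ± 0.24), Gcsam, a germinal centre membrane adaptor (-0.69 ± 0.17), and Neil1, a DNA glycosylase (-0.45 ± 0.13), with limma adjusted p of 0.0165 to 0.0349. These 3 were singled out after their values were seen. In COM against Control without Control 3, Gcsam was called (-0.62 ± 0.17, limma adjusted p = 0.0473), where 5.99% of all genes were called, and in KO none of the 10 was. The count in COM was also 1 lower without Control 1 and, without both Control 3 and KO 2, 3 lower. The comparison then holds 2 Control libraries. With Control 3 included, Mef2b in WT differed from Control by -0.51 ± 0.30 and was not called. Without Control 3, 0 of the 7 B cell genes and 1 of 21 other B lineage genes, Spib (-0.84 ± 0.25), were called as lower in WT.

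Plasma cell genes were higher in DSS than in Control, with 6 of 9 called as higher, beside 11.6% of all genes, and 0 as lower. Jchain, which joins the chains of secreted IgA and IgM, rose by 1.97 ± 0.58, the antibody-folding factor Mzb1 by 1.84 ± 0.48, Derl3 by 1.49 ± 0.35, the BAFF family receptor Tnfrsf17 by 1.28 ± 0.38, and the transcription factors Irf4 by 1.26 ± 0.29 and Prdm1 by 0.63 ± 0.16. All 6 were also called as higher in WT than in Control, where Mzb1 differed by 1.70 ± 0.45, and 0 of 9 were called in KO or COM against Control. The shares of all genes called were 23.1% in WT, 5.14% in KO and 7.6% in COM. Without Control 1 the plasma cell counts against Control were 6 in WT, 2 in KO and 5 in COM. The counts of 0 in KO and COM were thus not stable. Tested directly, KO minus WT was -0.60 ± 0.42 for Mzb1 and COM minus WT -0.52 ± 0.42, and 0 of 9 plasma cell genes were called in either. Against DSS, the median of the 9 plasma cell genes was -0.13 in WT, -0.75 in KO and -0.65 in COM, with 0 called in each. The median of the 7 B cell genes in WT against DSS was -0.98, and the difference between the lists was not tested. Without Control 3, 4 of the 9 were called as higher in DSS and 3 as higher in WT, each against Control. The count in DSS was 2 without DSS 2 and 3 without DSS 3, and that in WT was 3 without WT 3. Both counts were 0 when only the groups compared entered the model. Without the squamous-rich libraries both counts were 0, and without the acinar-rich libraries they were 0 in DSS and 5 in WT.

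Leaving out Control 3 also brought calls between groups that do not include it, through the smaller estimate of spread. In KO against DSS, where 1.96% of all genes were then called, 2 of 9 plasma cell genes were called as lower, Irf4 (-0.87 ± 0.20) and Derl3 (-0.83 ± 0.20). Ltb (-0.97 ± 0.23) and Cxcl13 (-0.89 ± 0.20) were the 2 of 22 follicle organising signals, and Cxcl13 and Vcam1 (-0.75 ± 0.16) the 2 of 9 follicular dendritic cell genes called as lower. Among other B lineage genes it was 1 of 21, Pou2f2 (-0.81 ± 0.18), and in B cell receptor signalling 4 of 19, Pik3cd, Ptpn6, Plcg2 and the kinase Lyn. In COM against DSS, Ptpn6 alone of these lists was called (-0.59 ± 0.11), where 0.28% of all genes were, and in WT against DSS none was. In KO against WT, where 5.42% of all genes were called, the lower calls in the same lists were Derl3 (-0.70 ± 0.18), Il7 and Id2, Vcam1 and Fcgr2b, and Lyn. None of the 7 B cell genes or the 10 germinal centre genes was called in these comparisons. Macrophage genes were called as lower too, 2 of 9 in KO against DSS and 7 of 9 in KO against WT, and their part in these values was not tested. All these genes were singled out after their values were seen.

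Ratios to Ms4a1 within each library show how far the proportions varied, and they were chosen after the values were seen and carry no test. The ratio of Cd79a to Ms4a1 was 3.42 to 5.03 in WT, 2.37 to 2.89 in DSS, 2.49 to 3.56 in Control, 2.76 to 3.91 in KO and 2.52 to 3.70 in COM. That of Cd79b to Ms4a1 was 2.20 to 2.86 in WT and 1.77 to 1.82 in DSS, without overlap. Mzb1 to Ms4a1 was 3.81 to 8.99 in WT and 1.70 to 2.58 in DSS, also without overlap. The same held for Blk, at 0.311 to 0.449 in WT and 0.284 to 0.302 in DSS, and for Cxcl13, at 3.16 to 6.73 in WT and 2.14 to 2.64 in DSS. Other groups reached the WT range. Mzb1 was up to 4.165 in KO and 4.159 in COM, Cd79b up to 2.325 in KO, and Blk up to 0.472 and Cxcl13 up to 12.78 in Control. Outside DSS, only Cd79b in Control and in COM stayed wholly below WT among these ratios. For Cr2, Fcer2a, Pax5, Gcsam and Mef2b the ratios of WT and DSS overlapped. All these ratios share Ms4a1, which had the lowest estimate of the 7 genes in WT against DSS (-1.28 ± 0.61). They are therefore not separate results. The share of all genes whose ratio to Ms4a1 splits WT from DSS was not computed. Over all 18 libraries the ratio of Fcer2a to Ms4a1 ran from 0.286 to 0.806 and that of Pax5 from 0.163 to 0.486.

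**Figure D4:**
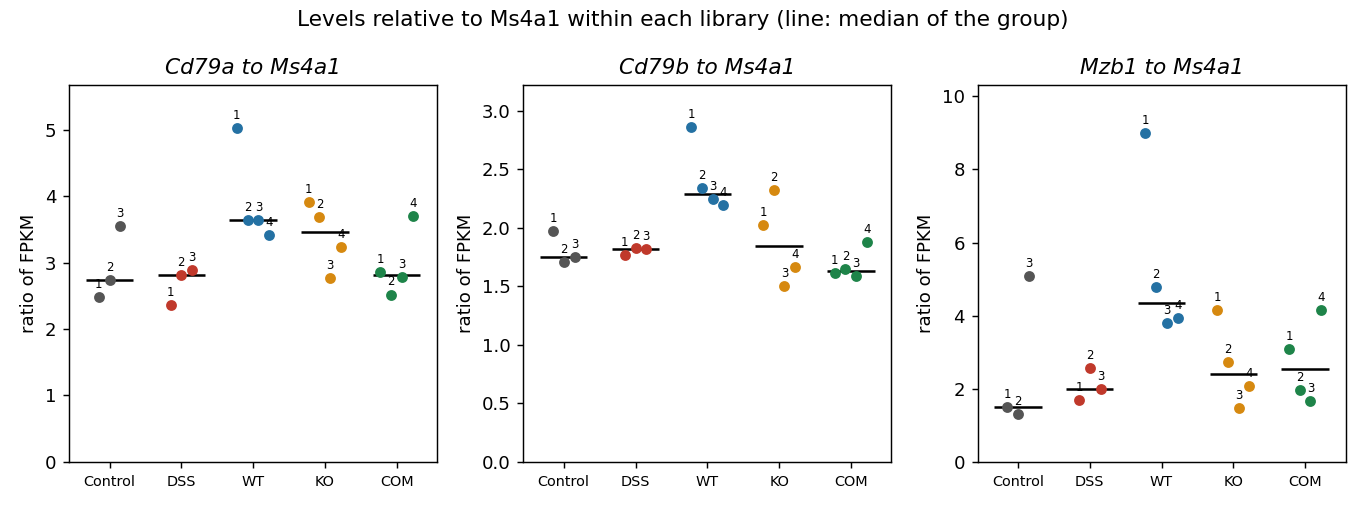
Ratio of the FPKM of Cd79a, Cd79b and Mzb1 to that of Ms4a1 in each library, on linear axes that start at 0, with a line at the median of each group. The WT libraries lie above the DSS libraries in all 3 panels.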

How the data were processed

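Total RNA of whole colon went through DNBSEQ sequencing, as stated per the labels' protocols. Deposited values are FPKM in 1 table from the authors, with NCBI gene IDs and values of 2 decimals, and the submitters' processing notes name build mm10. Of the aligner, the annotation and the FPKM program, the name is not given in the sources used here. Groups were read from the sample titles.

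Of 18349 IDs, 18230 matched a symbol in RefSeq tables of GRCm38.p6, which gave coordinates and promoter windows. FPKM are not counts, and 3.8% of low values lay within 0.05 of whole multiples of the gene's lowest value, so reads were not recovered and no count test was run. Values were taken as log2(FPKM + 1), which understates changes of low genes. The 13263 genes that reached 1 FPKM in 3 or more libraries entered 1 limma model of 5 groups (limma 3.58.1, R 4.3.3, mean-variance trend), tested on simulated data. Each two-sided contrast was adjusted by Benjamini-Hochberg over all genes tested. No 2 libraries shared more than 2.51% of identical values.

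All 7 members are named. From each other list at most 6 tested genes per comparison are named, called genes of the largest absolute change first and then those of the smallest p. The genes most alike in pattern are the 12 with the highest Pearson's r to the mean of the 7. The members and lists were chosen with earlier results of these data known. Lists are described by counts and medians, with no test of a list. Alternatives were a pseudocount of 0.1, no filter, a filter of 5 FPKM, TPM rescaling, quantile normalization, a replicate block, fits of only the groups compared, and each library left out. Leaving out sets of libraries by their Hox, acinar or squamous genes was chosen after seeing the data. Immunoglobulin and T cell receptor segments were not used here. Some genes of the lists enter the counts and medians and are not reported here by name.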

Additional observations from a re-analysis of the deposited data

Results flagged for a closer look

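Pax5 in COM 3 lay at 3.43 FPKM, far from the other COM libraries, of which the nearest was COM 2 at 1.47 FPKM. The gap was 0.883 of the range of the 4 libraries, above the limit of 0.829 of Dixon's test. It was the only such sample among 21 sets of 4 libraries (the 7 genes in WT, KO and COM), and chance alone flags about 1 in 20. COM 3 was the highest COM library for all 7 genes, and its squamous epithelium mean of 2.86 was the highest of the COM group. The part of the squamous genes in this value was not tested. Groups of 3 libraries were not tested, so Control 3 could not be flagged in this way.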

How the results depend on the processing

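Over 334 recomputed counts of called members, the count was 0 of 7 in all of them with these exceptions, all from leaving out a Control library. Over the 18 fits that leave out a library each, the count ran from 0 to 5 in DSS against Control and from 0 to 2 in the 4 DSS-treated groups against Control, and it was 0 throughout in the other comparisons and in the F test. A filter of 5 FPKM left Cr2, Blk and Pax5 untested, with 9854 genes, and no filter kept 18231 genes. Without Control 3, the 4 DSS-treated groups against Control reversed for each gene. Over the fits that leave out a library, the lowest (without Control 3) and highest values were -0.098 and 0.984 for Cr2, -0.0715 and 0.828 for Blk, -0.318 and 1.25 for Ms4a1, -0.0795 and 1.81 for Cd79a, -0.287 and 1.61 for Cd79b, -0.166 and 0.966 for Fcer2a, and -0.345 and 0.76 for Pax5. The median of the members against Control reversed in the same setting, with a lowest and highest value of -0.525 and 0.679 in WT, -0.348 and 0.954 in KO, and -0.421 and 0.844 in COM. Of 923 recomputed fold changes of members, 904 kept their direction and side of the threshold, 12 passed it and 7 reversed. Of 336 recomputed counts of called list genes, 72 moved by more than 1.5 times. The replicate number of the labels was tried as a replicate block, which gave 0 called members in each comparison, with a limma adjusted p of 0.105 for Cr2 in DSS against Control. Deviations of libraries that share a number correlated at -0.473 to 0.392 over 33 pairs, 13 of them over 0.1. Libraries with different numbers were not compared in this way, so these values do not settle whether the numbers pair the libraries. The number of reads is unknown, so counting error at low FPKM, such as 0.07 for Pax5 in Control 3, cannot be given.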
